A study of Mus musculus with 10 samples.

Results

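The 35 genes described here carry fatty acids from the blood into heart muscle cells, bring them into the mitochondrion, break them down there by beta-oxidation, and set the pace of that pathway. They were taken by gene symbol as a list of known function, chosen with earlier results of these data known. All 35 were found among the 37583 gene rows of the count files, and all 35 were among the 15364 genes with enough counts to be tested. Messenger RNA had been sequenced from left atria of adult mice in 10 libraries of 4 groups. Vehicle (CTL) and ibrutinib (IBR), a kinase inhibitor of B cell cancers that is known to raise the risk of atrial fibrillation, had 3 libraries each. Untreated wild-type mice (WT35 and WT338) and mice labelled as lacking CSK in the heart (KO26 and KO337) had 2 libraries each. Strain, sex, dose, length of treatment and the driver of the heart-specific deletion have no entry in the labels given, nor do these say whether each library is a separate mouse. A p-value here therefore reflects the spread among these libraries, which may be technical.

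Heart muscle draws most of its energy from long-chain fatty acids. Lipoprotein lipase frees them from blood lipids, membrane proteins let them in, a synthetase couples them to coenzyme A, and the carnitine shuttle moves them across the inner mitochondrial membrane. Each turn of beta-oxidation then shortens the chain by dehydrogenation, hydration, a further dehydrogenation and thiolysis, and the electrons reach the respiratory chain through the electron transfer flavoprotein. The nuclear receptor PPAR alpha and its coactivator PGC-1 alpha switch on most of these genes, and malonyl-CoA, an intermediate of fat synthesis, blocks the entry step.

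The libraries held 14907331 to 19960947 counts on genes. Levels are CPM, counts brought to a common library total after scaling by the trimmed mean of M values (TMM). Myl7, Myl4, Nppa and Sln, which mark atrial muscle, stood at 649.7 CPM or more in every library, and the ventricular Myl2 reached 8.62 CPM at most. Csk itself went against the genotype label, with 18.3 CPM (WT35) and 17.8 CPM (WT338) but 24.7 CPM (KO26) and 35.5 CPM (KO337). A gene-level count in whole tissue does not show which exons or cells lack it, so the libraries are called labelled KO below. KO337 stood apart from KO26, so the counts, the sums and the genes whose difference moved most are also given without it.

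Levels are compared between genes per unit of exon length, taken as the union of all annotated exons of a gene. That union can be longer than the transcripts present, so the order of genes can depend on the annotation. Lpl, with a union of 10478 bases, had 4345.5 CPM in CTL but 415 CPM per kilobase, while the union of Fabp3 is 823 bases. In CTL, Fabp3, which carries fatty acids through the cytosol, was highest, at 1310 CPM per kilobase of exon. Acaa2, the mitochondrial thiolase, followed at 543, and Acadl, a long-chain acyl-CoA dehydrogenase, at 511 CPM per kilobase. The order at the top differed in WT, where Pdk4 led at 645 CPM per kilobase and Fabp3 had 420. The ranges of the CTL libraries overlapped for the neighbours Acaa2, Acadl and Pdk4, and Fabp3 lay above all of them. The regulators were spread over the order, from Pdk4 at 480 over Ppargc1a at 53.7 to Ppara at 16.5 and Ucp3 at 13.2 CPM per kilobase in CTL. Cpt1b, known as the main carnitine palmitoyltransferase of heart muscle, was lowest, at 0.909 CPM per kilobase in CTL and 2.22 in WT. In the GENCODE vM21 annotation 81.4% of its exon bases are shared with a read-through gene, Gm44502, whose identifier has no row in the count files. Whether reads of Cpt1b were lost in counting was not tested. The values of Cpt1b are uncertain, as are those of the near-identical copies Acot1 and Acot2. Reads that match both copies can be set aside as not unique, and the size of any such loss was not tested.

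**Figure D1:**
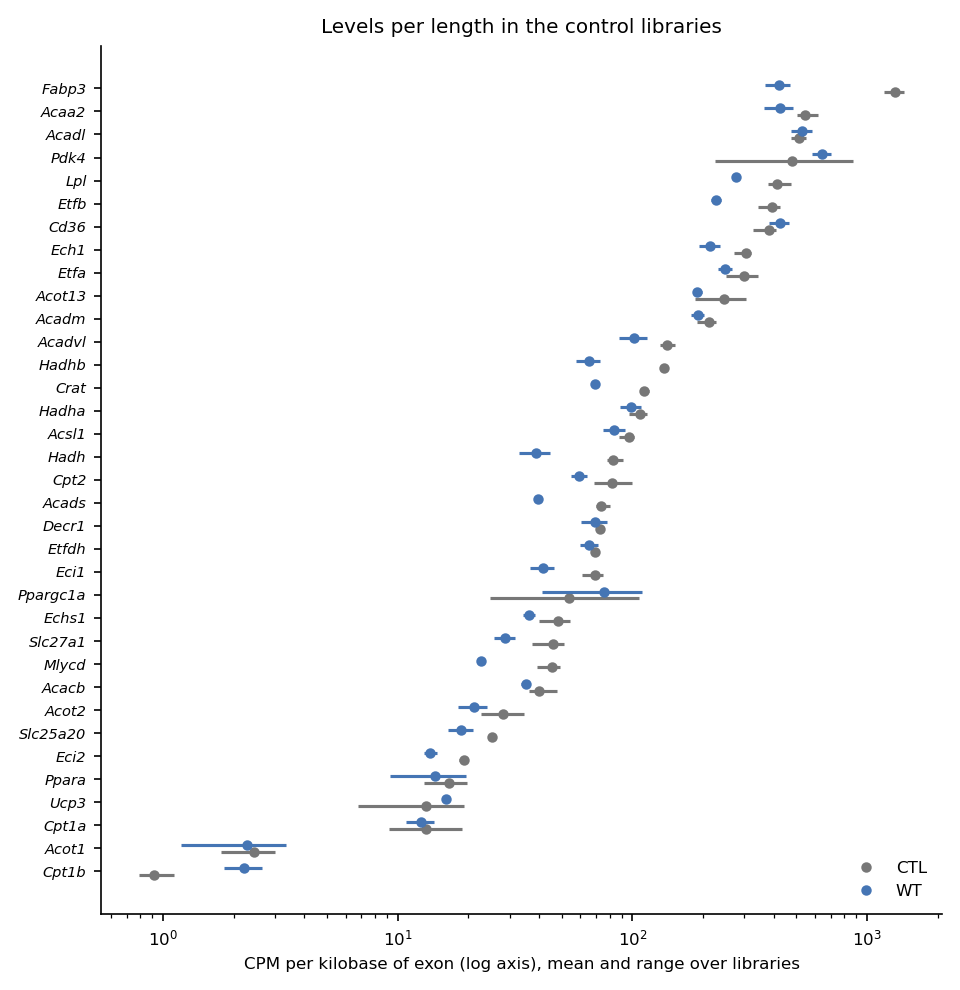
Level of each member per kilobase of exon in the CTL (grey, 3 libraries) and WT (blue, 2 libraries) groups, on a log axis. Points are means and lines run from the lowest to the highest library; Fabp3 is at the top at 1310 CPM per kilobase in CTL and Cpt1b at the bottom at 0.909.

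The genotype comparison asks how left atria labelled as lacking CSK differ from wild-type atria. All 35 members had fitted levels below WT in the libraries labelled KO, with a median log2 difference of -0.83 against 0.01 over all tested genes. For 32 of the 35, both libraries labelled KO lay below both WT libraries, where 26.9% of all tested genes did so and 26.3% lay the other way. The exceptions were Lpl, Acot2 and Cpt1a. The same shares of all tested genes apply wherever genes of a role are said below not to overlap between WT and labelled KO. None of the 35 was called, which needs a Benjamini-Hochberg adjusted p under 0.05 from the quasi-likelihood test of edgeR, where 0.898% of all tested genes were called lower and 1.31% higher. At an unadjusted p under 0.05, 30 of the 35 were lower, against 12.4% of all tested genes, and DESeq2 called 22 lower, where it called 6.22% of all tested genes lower and 5.87% higher. A negative sign was shared by 49.2% of all tested genes. Of the 35 differences 7 lay below -1 on the log2 scale, 25 between -1 and -0.5 and 3 above -0.5. In whole tissue, fewer heart muscle cells and less RNA per cell cannot be told apart.

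The calls turned on single libraries. KO337 was the lowest genotype library for 32 members and KO26 for the other 3, Cpt1a, Ppargc1a and Pdk4. WT35 was the highest for 29. In KO26 the members stood at a median of 74.6% of the WT mean, from 28.4% (Pdk4) to 116% (Lpl), and 4 members were below 50%. In KO337 the median was 37.8%, from 21.4% (Acot1) to 112% (Cpt1a), and 31 members were below 50%. Without KO337 the median difference was -0.44, with 0 members called and 18 at an unadjusted p under 0.05. Without KO26 it was -1.42 with 29 called lower, but 13% of all tested genes were then called lower and 11.3% higher, and without CTL2, which enters the fit through the shared spread, Pdk4 alone of the members was called lower (adjusted p = 0.0464), as was 0.373% of all tested genes. With edgeR fitted to the 4 genotype libraries alone, 0 of 14859 genes were called in either direction, and 7 members were lower at an unadjusted p under 0.05, against 5.03% of all tested genes. Scaling to gene count totals without TMM moved the median of all genes by 0.23, and the members' median was then -0.62, with Lpl (0.056) and Cpt1a (0.20) on the other side of 0.

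**Figure D2:**
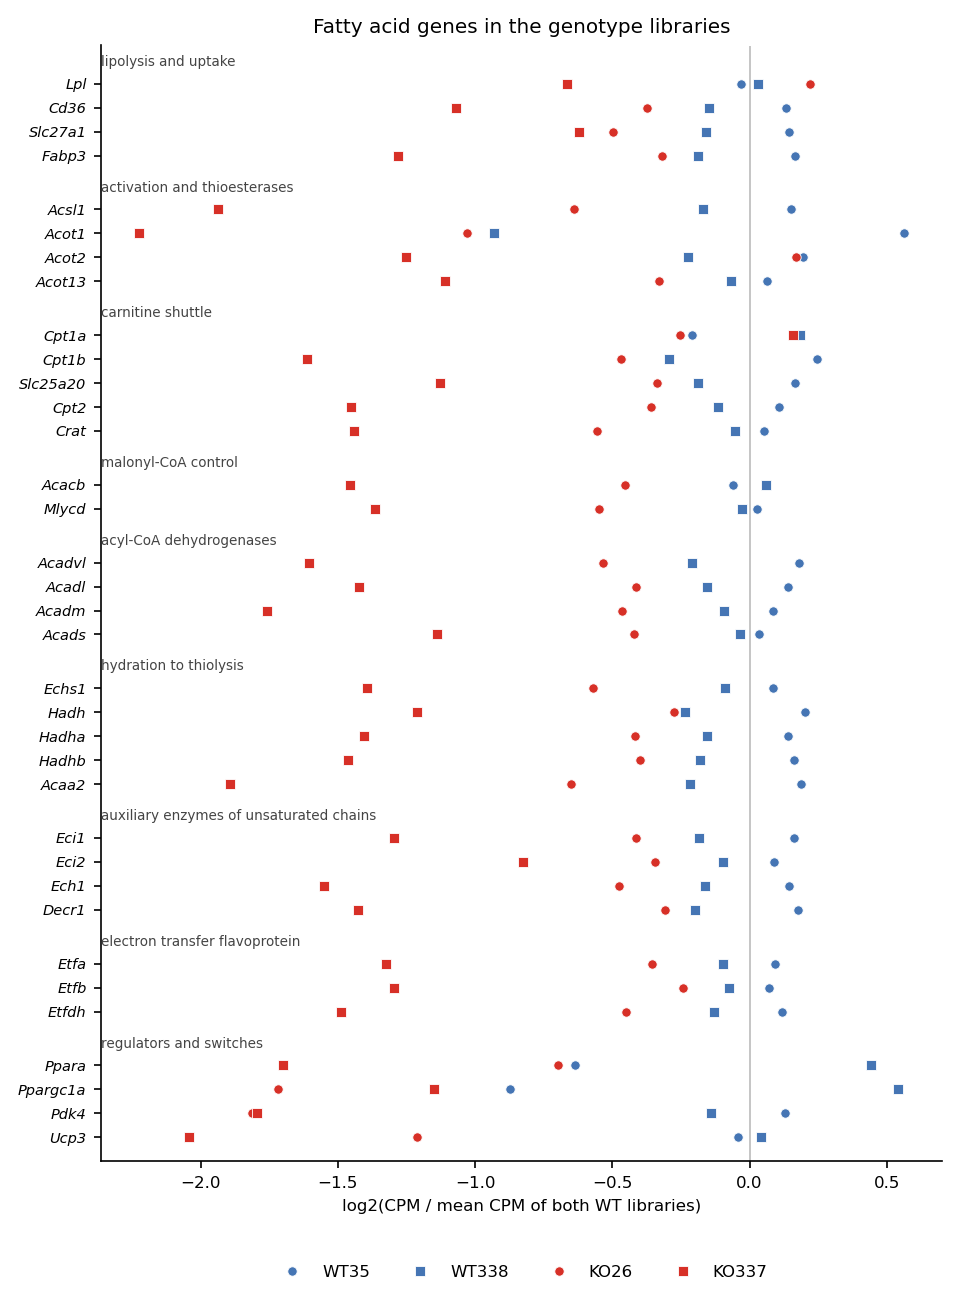
Level of each member in the 4 genotype libraries as log2 of its CPM over the mean CPM of WT35 and WT338 (blue circles and squares; KO26 and KO337 are red circles and squares), grouped by role. KO337 is the leftmost point for 32 of the 35 members, and for Lpl, Acot2 and Cpt1a a library labelled KO lies to the right of a WT library.

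The regulators and switches had the largest differences of any role, with a median of -1.49 over 4 genes. Pdk4 encodes a kinase that shuts pyruvate dehydrogenase and so spares glucose while fat is burnt. It gave 2474 and 2053 CPM in the WT pair (WT35 first, here and below), 644 CPM in KO26 and 653 CPM in KO337. Both libraries labelled KO were thus alike and below both WT libraries, whereas KO337 lay under KO26 for 32 members. Its log2 difference was -1.80 (SE 0.52, adjusted p = 0.0862 in edgeR's test), and it was -1.83 without KO337 and -1.81 without KO26. Ucp3, an uncoupling protein of the inner membrane whose expression follows fatty acid supply, gave 49.0 and 52.1 CPM in the WT pair, 21.8 CPM in KO26 and 12.3 CPM in KO337 (log2 -1.57, SE 0.45, adjusted p = 0.0867). The groups did not overlap for either gene.

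Ppara and Ppargc1a, which encode PPAR alpha and PGC-1 alpha, varied widely among the controls themselves. Ppara gave 35.5 CPM in WT35, 74.9 CPM in WT338, 34.0 CPM in KO26 and 17.0 CPM in KO337. KO26 thus lay just under WT35, and the log2 difference of -1.12 (SE 0.41, adjusted p = 0.134) shrank to -0.49 without WT338. Ppargc1a gave 272 and 725 CPM in the WT pair, 151 CPM in KO26 and 225 CPM in KO337 (log2 -1.41, SE 0.69, adjusted p = 0.228). Without WT338 its difference was -0.55, so the size of both differences rests on that WT library.

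**Figure D3:**
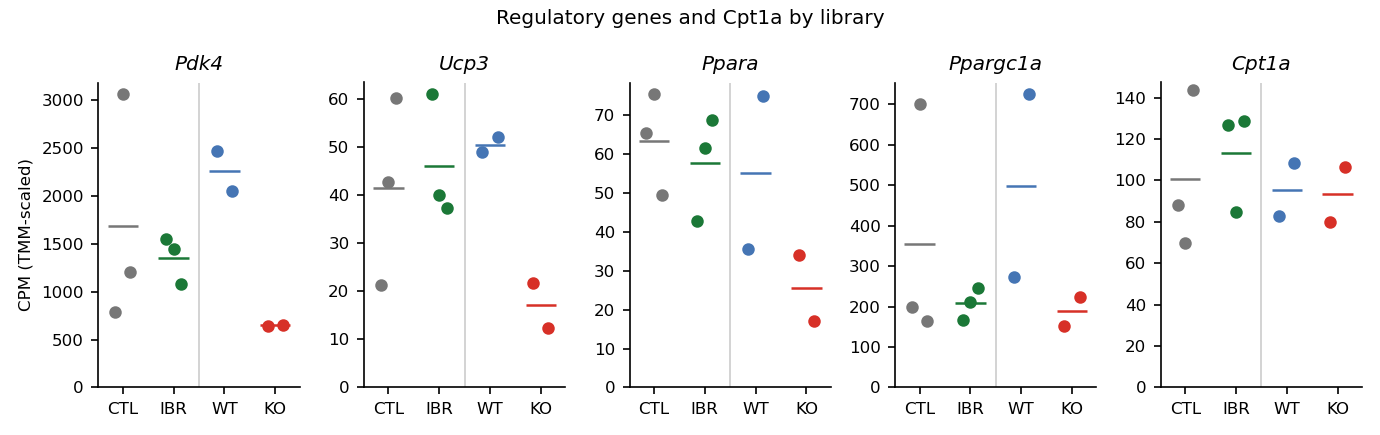
TMM-scaled CPM of Pdk4, Ucp3, Ppara, Ppargc1a and Cpt1a in each library (points) with the group mean (line), each panel from 0. Pdk4 and Ucp3 separate WT from the libraries labelled KO, Cpt1a does not, and CTL2 is the high point of CTL for Pdk4 (3066 CPM) and Ppargc1a (700.4 CPM).

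PPAR alpha and the estrogen-related receptors, partners of PGC-1 alpha, bind DNA motifs built on AGGTCA, so the RefSeq promoter windows (GRCm38.p6, 250 bases before to 50 after a start, 300 in all) were searched for it on both strands. Windows were found for 29 of the 35 members, and Lpl, Acot13, Cpt1b, Crat, Acaa2 and Decr1 had none in that table. AGGTCA occurred in the windows of 7 of the 29 (24.1%), namely Cd36, Cpt1a, Acacb, Acadvl, Acadm, Echs1 and Ucp3, against 18.1% of 27025 genes. The longer TCAAGGTCA, which contains it, occurred in 0 of 29 and 0.466% of all genes, and the direct repeat AGGTCANAGGTCA in 0 of 29 and 0.0481%. The 250 bases before the start are shown for Ucp3, the member with 2 matches, for Acadm, a dehydrogenase gene with 1 match and a difference of -0.97, and for Cpt1a, which has 1 match and the smallest genotype difference. Their positions are chr7:100472741-100472990 (plus strand), chr3:153944644-153944893 (minus strand) and chr19:3323051-3323300 (plus strand), each is written 5′ to 3′ along its gene, and capitals mark AGGTCA or its reverse complement TGACCT.
Ucp3: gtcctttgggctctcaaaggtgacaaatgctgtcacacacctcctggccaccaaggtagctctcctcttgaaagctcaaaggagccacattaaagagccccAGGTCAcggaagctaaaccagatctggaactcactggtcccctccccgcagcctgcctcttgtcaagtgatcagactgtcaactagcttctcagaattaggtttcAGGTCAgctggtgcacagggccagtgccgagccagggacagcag
Acadm: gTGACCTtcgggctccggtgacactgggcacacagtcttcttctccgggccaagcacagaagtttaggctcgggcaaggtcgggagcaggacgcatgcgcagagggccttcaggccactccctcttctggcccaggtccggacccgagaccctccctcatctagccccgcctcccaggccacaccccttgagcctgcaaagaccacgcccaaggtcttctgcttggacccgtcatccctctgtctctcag
Cpt1a: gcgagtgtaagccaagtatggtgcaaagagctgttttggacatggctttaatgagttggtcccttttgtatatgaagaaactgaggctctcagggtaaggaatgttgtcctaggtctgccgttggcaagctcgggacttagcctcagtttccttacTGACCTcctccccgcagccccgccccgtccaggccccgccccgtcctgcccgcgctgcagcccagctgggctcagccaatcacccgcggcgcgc
A match to these letters is a description of the window, and no binding was measured.

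Uptake genes had the median nearest to 0 of all roles, -0.62 over 4 genes. Lpl, the lipase, stood at 2824 and 2950 CPM in WT35 and WT338, at 3358 CPM in KO26 and at 1822 CPM in KO337. KO26 was thus above both WT libraries and KO337 below them (log2 -0.16, SE 0.30, adjusted p = 0.779), and without KO337 the difference was 0.20. Cd36, the main fatty acid translocase of muscle, gave 1675 and 1378 CPM in the WT pair, 1179 CPM in KO26 and 728 CPM in KO337 (log2 -0.68, SE 0.25, adjusted p = 0.132). Slc27a1, a transport protein of the plasma membrane, gave 184 and 149 CPM in the WT pair, 118 CPM in KO26 and 108 CPM in KO337, with both libraries labelled KO alike (log2 -0.56, SE 0.18, adjusted p = 0.106). Fabp3 gave 387 and 304 CPM in the WT pair, 277 CPM in KO26 and 142 CPM in KO337 (log2 -0.72). Apart from Lpl, no uptake gene overlapped between the groups, where 26.9% of all tested genes lay lower without overlap.

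Among the genes of activation, Acsl1, the main long-chain acyl-CoA synthetase of the heart, gave 975 and 782 CPM in the WT pair, 564 CPM in KO26 and 229.6 CPM in KO337. Both lay below WT, and the log2 difference was -1.15 (SE 0.35, adjusted p = 0.0903), or -0.66 without KO337. The thioesterases, which split acyl-CoA again, ranged more widely. Acot1 was low in every library, with 13.1 CPM in WT35, 4.65 CPM in WT338, 4.35 CPM in KO26 and 1.90 CPM in KO337 (log2 -1.53), and without WT35 its difference was -0.59. Acot2 gave 52.9 and 39.6 CPM in the WT pair, 52.0 CPM in KO26 and 19.4 CPM in KO337, so the groups overlapped (log2 -0.38, SE 0.37, adjusted p = 0.56), and without KO337 the sign turned (0.15). Acot13 had a difference of -0.67.

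In the carnitine shuttle, the isoform found in liver and many other tissues, Cpt1a, gave 82.6 and 108.5 CPM in the WT pair, 80.1 CPM in KO26 and 106.7 CPM in KO337. The 2 groups covered nearly the same range, and the log2 difference of -0.03 (SE 0.33, adjusted p = 0.966) had a 95% interval from -0.77 to 0.70. Other shuttle genes had larger fitted differences. Crat, which trades acetyl groups between carnitine and coenzyme A, gave 385 and 358 CPM in the WT pair, 253 CPM in KO26 and 137 CPM in KO337, without overlap (log2 -0.93, SE 0.25, adjusted p = 0.0721). Cpt2, the inner membrane transferase, and Slc25a20, the carnitine carrier, had differences of -0.81 and -0.68, and Cpt1b, at 8.85 and 6.10 CPM against 5.40 and 2.45 CPM, had -0.94. The ratio of Cpt1a to Cpt2 was 0.542 and 0.829 in WT, 0.725 in KO26 and 2.06 in KO337.

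Both genes of malonyl-CoA control had lower levels, although their products act in opposite ways. Mlycd, the decarboxylase that removes malonyl-CoA, had the smallest adjusted p of all members, 0.0643, with 68.3 and 65.8 CPM in the WT pair, 45.8 CPM in KO26 and 26 CPM in KO337 (log2 -0.90, SE 0.23). Acacb, the mitochondrial acetyl-CoA carboxylase that makes it, gave 324 and 352 CPM in the WT pair, 247 CPM in KO26 and 123 CPM in KO337 (log2 -0.87, SE 0.29, adjusted p = 0.105). Neither gene overlapped between the groups, and without KO337 the differences were -0.57 and -0.47.

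The 4 acyl-CoA dehydrogenases, which open each turn on chains of falling length, had differences from -0.97 to -0.74. Acadvl (very long chains) gave 309 and 236 CPM in the WT pair, 188 CPM in KO26 and 89.6 CPM in KO337, with a log2 difference of -0.97 (SE 0.29, adjusted p = 0.0891). Acadvl shares 42.9% of its exon bases with its opposite-strand neighbour Dvl2, which also has a row in the count files. Counting was without strand, so reads on the shared bases can be set aside as ambiguous for both genes. Any effect of this on the Acadvl values was not tested. Acads (short chains) gave 91.8 and 87.6 CPM in the WT pair, 66.9 CPM in KO26 and 40.7 CPM in KO337 (log2 -0.74, SE 0.22, adjusted p = 0.0881). Acadm (medium chains) and Acadl had differences of -0.97 and -0.83. None of the 4 overlapped between the groups, where 26.9% of all tested genes lay lower without overlap.

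The later steps followed the same pattern. Echs1, the enoyl-CoA hydratase, gave 319 and 282 CPM in the WT pair, 202 CPM in KO26 and 114 CPM in KO337 (log2 -0.93, SE 0.26, adjusted p = 0.0778). Acaa2, the thiolase that ends a turn, gave 733 and 553 CPM in the WT pair, 409 CPM in KO26 and 173 CPM in KO337 (log2 -1.14, SE 0.34, adjusted p = 0.0879). Hadha and Hadhb, the subunits of the trifunctional protein, both differed by -0.83, and Hadh, the dehydrogenase of shorter chains, by -0.67. KO26 was below the lower WT library for each of these 5 genes, by the narrowest margin for Hadh (159 against 163 CPM).

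The auxiliary enzymes, which deal with double bonds of unsaturated chains, had differences from -0.92 to -0.57. Eci2, an enoyl-CoA isomerase, gave 81.2 and 71.4 CPM in the WT pair, 60.0 CPM in KO26 and 43.0 CPM in KO337 (log2 -0.57, SE 0.17, adjusted p = 0.0882). Ech1, Eci1 and Decr1, which encode a dienoyl-CoA isomerase, a further enoyl-CoA isomerase and the dienoyl-CoA reductase, followed the order -0.92, -0.79 and -0.76. Of the genes that pass electrons on, Etfdh, the membrane oxidoreductase, gave 534 and 449 CPM in the WT pair, 359 CPM in KO26 and 175 CPM in KO337 (log2 -0.88, SE 0.28, adjusted p = 0.0964). Etfa and Etfb, the flavoprotein subunits, differed by -0.76 and -0.68. In GENCODE vM21, Etfb shares 53.0% of its exon bases with the same-strand gene Gm45233, which has no row in the count files. Whether this overlap affected the Etfb values was not tested. None of these 7 genes of the auxiliary and electron transfer roles overlapped between the groups, where 26.9% of all tested genes lay lower without overlap.

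The summed level of the members was lower in the libraries labelled KO, and so was that of other heart muscle genes. The 35 genes summed to 17594 and 15818 CPM in WT35 and WT338 and to 12293 and 6920 CPM in KO26 and KO337, a ratio of group means of 0.575, or 0.726 without KO337 and 0.409 without KO26. A list of 16 sarcomere genes summed to 95038 and 90865 CPM in WT and to 69663 and 38312 CPM, and the median difference of its 15 tested genes was -0.86. The members' sum over the sarcomere sum was 0.185 and 0.174 in WT and 0.176 and 0.181 in KO26 and KO337, so the ratio overlapped between the groups. Of the 35 members 16 lay below the sarcomere median and 19 above it. In the same libraries, the sums of macrophage, fibroblast, T and NK cell, and smooth muscle and pericyte markers were higher, whereas endothelial and adipocyte sums overlapped with WT. The sum of 12 macrophage markers was 548 and 595 CPM in WT against 912 and 3368 CPM, with 11 of 12 positive and Adgre1, Cx3cr1 and Fcgr1 called higher. The sum of 10 fibroblast markers was 3047 and 2864 CPM in WT against 3567 and 13401 CPM, with 10 of 10 positive and none called. A list of 8 T and NK cell markers, which includes Ptprc, a gene of leukocytes in general, summed to 16.3 and 16.4 CPM in WT against 66.2 and 132 CPM. Of this list 6 of 6 tested were positive, and Ptprc, Cd3e and Cd8a were called higher. All 6 of these calls were lost when either WT library was left out and with edgeR fitted to the genotype libraries alone (adjusted p = 0.297 for each). That of Fcgr1 was also lost with RLE scaling (adjusted p = 0.0504). With each of the 10 libraries left out in turn, the call was lost in 3 fits for Adgre1, 4 for Ptprc and 7 for Cx3cr1. It was lost in 8 fits each for Fcgr1 and Cd8a and in 9 for Cd3e. The 8 smooth muscle and pericyte markers summed to 508 to 527 CPM in WT and 583 to 1029.8 CPM in the libraries labelled KO, with 6 of 8 positive, 3 of them higher at an unadjusted p under 0.05, and none called. The 10 endothelial markers summed to 1605 to 1997 CPM in WT and 1725 to 2141 CPM in the libraries labelled KO, with 6 positive, 4 negative and none called. The 10 adipocyte markers summed to 198 to 277 CPM in WT and 236 to 288 CPM, with 6 of 7 tested positive and none called. Adipoq stood at 4.12 CPM at most in any library. The part of cell composition in the members' levels was not tested.

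**Figure D4:**
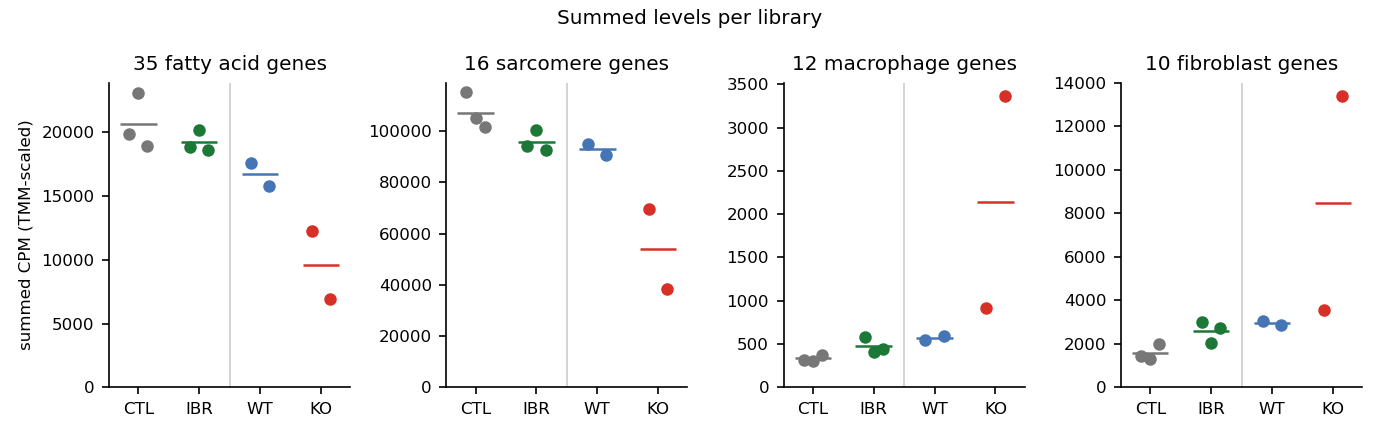
Summed TMM-scaled CPM of the 35 members and of the sarcomere, macrophage and fibroblast marker lists in each library (points) with group means (lines), each panel from 0. The members and the sarcomere genes are lowest in KO337 (6920 and 38312 CPM), where the macrophage and fibroblast sums are highest (3368 and 13401 CPM).

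Neighbouring pathways had medians nearer to 0 than the members' -0.83. Of 14 peroxisomal genes 13 were negative (median -0.35) and none was called. Scp2, a sterol carrier and thiolase of that organelle, gave 270.3 and 253.5 CPM in the WT pair, 185 CPM in KO26 and 131 CPM in KO337 (log2 -0.73, adjusted p = 0.0685), and Acaa1a, a peroxisomal thiolase, gave 58.3 and 53.1 CPM in the WT pair, 53.9 CPM in KO26 and 57.5 CPM in KO337, with overlap. Of 16 genes of triglyceride storage and lipolysis 11 were negative (median -0.38), and Plin4, a lipid droplet coat protein, was called lower. It fell from 387 and 417 CPM in WT to 190.1 and 163 CPM in KO26 and KO337 (log2 -1.19, SE 0.23, adjusted p = 0.0368), and its call held without KO26 or IBR2 and was lost without any other single library (adjusted p of 0.0504 to 0.167), with gene count totals (0.0529) and with the genotype libraries alone (0.297). Dgat2, which makes triglyceride, gave 49.0 and 77.1 CPM in the WT pair, 26.9 CPM in KO26 and 9.42 CPM in KO337 (log2 -1.80, SE 0.40, adjusted p = 0.0514). Plin2, the droplet protein of many cell types, had the opposite sign (log2 1.10), with 26.6 and 25.5 CPM in WT, 29.5 CPM in KO26 and 82.2 CPM in KO337.

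Branched-chain amino acid and related acyl-CoA dehydrogenase genes stood nearest to the members, with 15 of 15 negative and a median of -0.72. Ivd, the isovaleryl-CoA dehydrogenase of leucine breakdown, which also passes its electrons to the flavoprotein, was called lower. It fell from 247 and 322 CPM in WT to 149.5 and 90.1 CPM in KO26 and KO337 (log2 -1.25, SE 0.27, adjusted p = 0.0459), and its call held without KO26 and was lost without any other single library (adjusted p of 0.0637 to 0.205), with gene count totals (0.0521) and with the genotype libraries alone (0.315). Of 13 genes of ketone and acetyl-CoA use 12 were negative (median -0.47) and none was called, among them Pdk2, a kinase like Pdk4, at -0.81 (adjusted p = 0.0796) and Acat1, the ketone thiolase, at -0.88. Of 17 nuclear receptors and coactivators 13 were negative (median -0.32), with Perm1, a muscle partner of PGC-1 alpha, at -0.83 and Tfam, the mitochondrial transcription factor, at -0.57, neither called. Other uptake and synthetase genes (8 of 13 tested negative, median -0.08) and AMP-activated kinase genes and their partners (6 of 11, median -0.24) had no called member. Acsl5, a synthetase, had the opposite sign, with 45.0 CPM in KO26 and 70.3 CPM in KO337 over 32.1 and 29.5 CPM in WT (log2 0.91, adjusted p = 0.0944), and Got2, a mitochondrial transaminase that also binds fatty acids, was at -0.89. None of these lists was tested as a set.

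The drug comparison asks what ibrutinib does to the atrial transcriptome. No member passed the test between IBR and CTL. Of the 35, 31 had a negative difference, against 55.2% of all tested genes, and the median was -0.13, against -0.03 for all genes and -0.20 for the sarcomere list. In edgeR's quasi-likelihood test 0 members were called, as was 0% of all tested genes in either direction, with adjusted p from 0.823 to 0.993. At an unadjusted p under 0.05 there were 0 of 35 members, against 2.21% of all tested genes lower and 3.31% higher, and DESeq2 also called 0, as against 0.013% of all tested genes called lower. The 95% interval of each difference included 0, and for 31 of the 35 it lay within 1 log2 unit of 0, so for these a 2-fold change lay outside the interval. The intervals of Cpt1b, Ppargc1a and Pdk4 reached below -1, and that of Acot1 above 1.

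For 6 members all IBR libraries lay below all CTL libraries, where 7.55% of all tested genes did so and 5.91% lay the other way. They were Eci2, Etfdh, Crat, Acadvl, Slc25a20 and Cpt1b. Etfdh stood at 518, 522 and 522 CPM in CTL and at 449, 448 and 442 CPM in IBR, a narrow spread within each group (log2 -0.22, SE 0.22, adjusted p = 0.872). Eci2 stood at 108.8, 107 and 101 CPM in CTL and at 97.0, 83.3 and 87.5 CPM in IBR (log2 -0.24, SE 0.14, adjusted p = 0.823). Crat stood at 583, 636 and 587 CPM in CTL and at 498, 565 and 532 CPM in IBR, and Acadvl at 408, 351 and 369 CPM against 334, 334 and 298 CPM. Slc25a20 stood at 125, 122 and 118 CPM against 117, 98.6 and 109.9 CPM, so that its groups nearly touched. Cpt1b was low throughout, at 2.79, 2.67 and 3.74 CPM against 2.59, 0.919 and 2.63 CPM, where 3 counts in a library make 0.136 to 0.216 CPM. Without CTL3 the number without overlap was 16, where 19.9% of all tested genes lay lower without overlap. That share also rose when any other drug library was left out, to between 10.8% (IBR1) and 17.4% (IBR2). Smaller groups overlap less readily, and the part of CTL3 in the members' rise was not tested.

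Among the regulators, CTL2 stood out. Pdk4 stood at 787, 3066 and 1206 CPM in the CTL libraries and at 1547, 1446 and 1077 CPM in IBR, and Ppargc1a at 199, 700.4 and 164 CPM against 166, 210.4 and 247 CPM. CTL2 was the high library for both genes, and the IBR libraries lay within the range of CTL. The log2 differences of -0.31 (SE 0.41) and -0.77 (SE 0.55) turned to 0.44 and 0.20 without CTL2. Ppara stood at 65.4, 75.5 and 49.4 CPM in CTL and 42.9, 61.5 and 68.8 CPM in IBR (log2 -0.14), and Ucp3 at 21.3, 42.8 and 60.3 CPM against 61.0, 40.1 and 37.2 CPM (log2 0.15). Both groups overlapped for each of them.

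Every uptake gene overlapped between IBR and CTL, as did Cpt1a and Cpt2 of the carnitine shuttle. Lpl stood at 4109.8, 4961 and 3966 CPM in CTL and at 3963, 5371 and 4108 CPM in IBR (log2 0.04, 95% interval from -0.50 to 0.59). Cd36 had 1475, 1456 and 1173 CPM in CTL and 1258, 1204 and 1308 CPM in IBR (log2 -0.12, SE 0.20). Cpt1a had 88.0, 69.8 and 143.6 CPM in CTL and 126.8, 84.8 and 128.7 CPM in IBR (log2 0.17, SE 0.27). Acot13, a thioesterase, had the most negative difference among genes of activation (log2 -0.36, SE 0.21, adjusted p = 0.823), with 187, 226 and 137 CPM in CTL and 137, 147 and 144 CPM in IBR. Mlycd and Echs1 both differed by -0.17, with overlap between CTL and IBR. The positive differences were those of Lpl, Acot1 (0.23), Cpt1a and Ucp3.

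The members summed to 18936 to 23102 CPM in CTL and to 18610 to 20212 CPM in IBR, which overlapped. The sum over the sarcomere sum was 0.173 to 0.220 in CTL and 0.200 to 0.201 in IBR. Macrophage markers summed to 310 to 379 CPM in CTL and 414 to 587 CPM in IBR, with 12 of 12 positive, and fibroblast markers to 1303 to 1998 CPM and 2040 to 2997 CPM, with 10 of 10 positive, and none was called. Their part in the members' levels was not tested. In the neighbouring pathways no gene was called. Acaa1a stood at 98.0, 99.8 and 94.2 CPM in CTL and 83.1, 86.4 and 76.5 CPM in IBR (log2 -0.25, SE 0.10, adjusted p = 0.823), without overlap. Bdh1, which interconverts ketone bodies, stood at 47.7, 65.4 and 44.3 CPM in CTL and 25.4, 23.4 and 28.1 CPM in IBR (log2 -1.03, SE 0.30, adjusted p = 0.823), so the groups did not overlap. Perm1 had 408, 489 and 397 CPM in CTL but 291, 323 and 309 CPM in IBR (log2 -0.49, SE 0.22, adjusted p = 0.823), also without overlap.

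**Figure D5:**
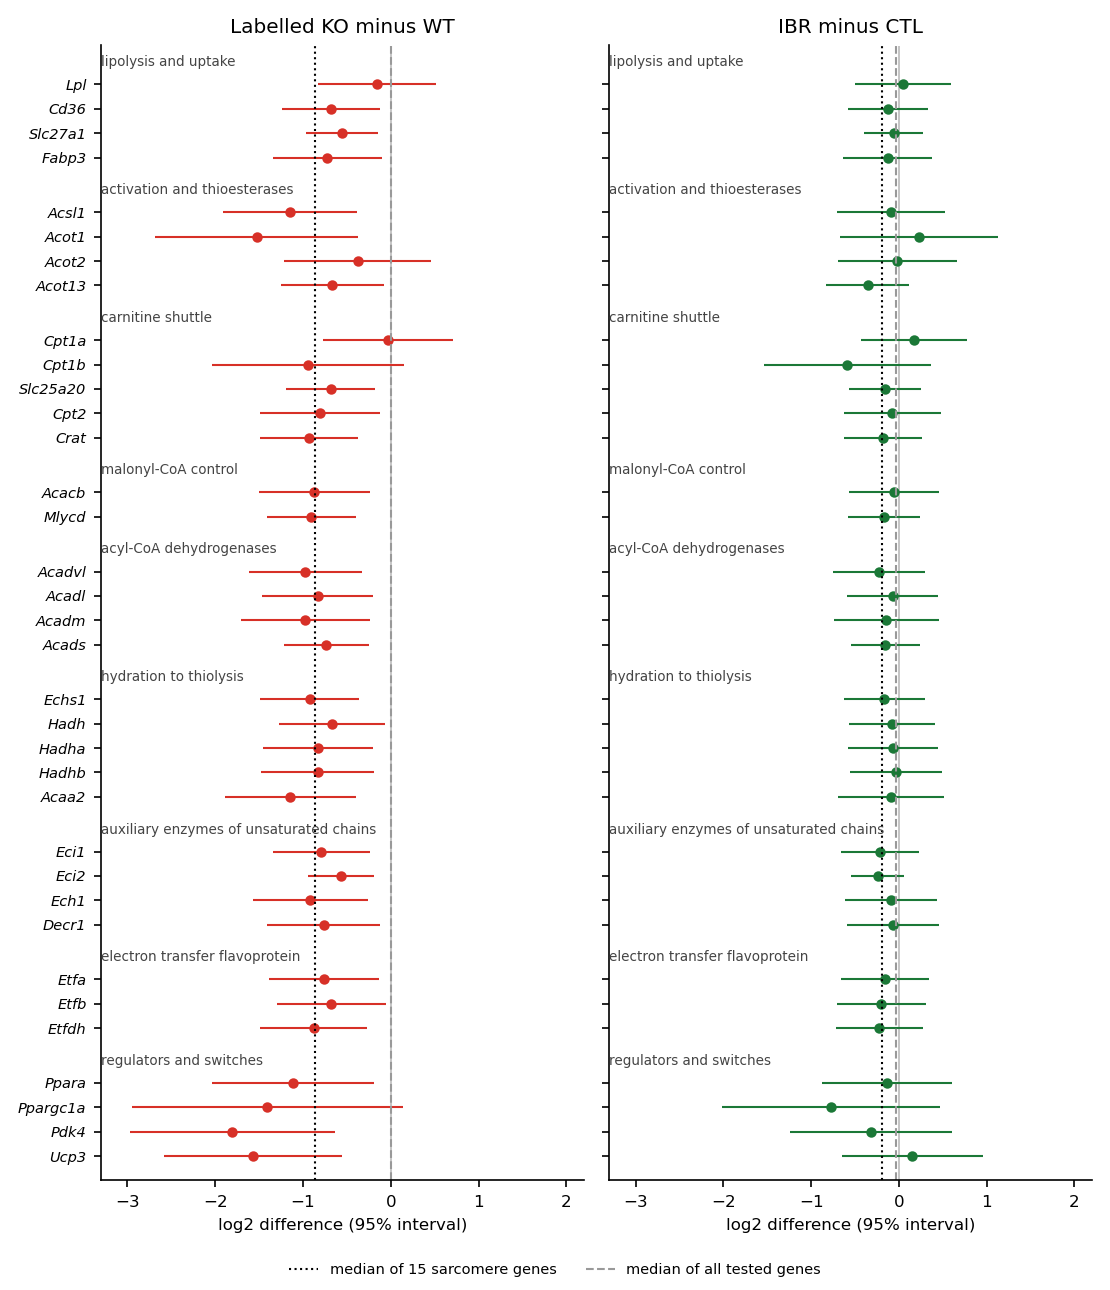
Fitted log2 difference of each member with its 95% interval for labelled KO minus WT (left) and IBR minus CTL (right), grouped by role; dotted and dashed lines are the medians of 15 sarcomere genes and of all tested genes. On the left the members spread around the sarcomere median of -0.86, with Cpt1a (-0.03) and Lpl (-0.16) nearest to 0, and on the right every interval includes 0.

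The last comparison asks whether the genotype and drug differences themselves differed. Both rest on separate libraries. The difference of effects, genotype minus drug, was negative for all 35 members, against 47.3% of all tested genes, with a median of -0.70. None was called by edgeR's quasi-likelihood test (lowest adjusted p = 0.406, for Ucp3), where 0.026% of all tested genes were called lower. At an unadjusted p under 0.05, 9 members were lower, against 4.82% of all tested genes lower and 4.97% higher, and DESeq2 called 0. Ucp3 had the second most negative value, -1.73, after Acot1 at -1.76, and Lpl and Cpt1a the least negative, at -0.20 and -0.21. Without KO26, 24 members were called lower, but 5.82% of all tested genes were then called lower and 3.84% higher. Without KO337, 0 members and 0% of all tested genes were called lower.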

How the data were processed

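Poly(A)-selected RNA of 10 mouse left atrial libraries was counted per gene. The deposited values were raw counts, and STAR, HTSeq, edgeR and the build mm9 are named per the submitters' processing notes. Versions and the annotation are not stated there. File names state counting without strand, so reads of overlapping genes cannot be told apart. Unassigned reads (5 rows; no feature 13.5% to 19.9%, not unique 11.8% to 27.4%, ambiguous 3.14% to 3.99%) stayed out of library sizes and tests. Symbols were matched for 32860 identifiers (87.4%).

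Genes were kept by filterByExpr (minimum count 10, total 15), scaled by TMM and fitted in edgeR 4.0.16 (R 4.3.3, limma 3.58.1) by robust quasi-likelihood with 1 mean for each of the 4 groups and 6 residual degrees of freedom. Called means a Benjamini-Hochberg adjusted p under 0.05 over all 15364 genes. A standard error (SE) is the log2 difference over the root of its F statistic. Alternatives were RLE scaling, gene count totals, no filter, DESeq2 1.42.0, each experiment alone, a replicate block and leaving out each library. Lengths are the union of GENCODE vM21 exons, whose build differs from mm9. The only positions given are those of RefSeq promoter windows and start sites on GRCm38.p6, which also differs from mm9. Promoter sequences are from RefSeq. Tested on simulated counts, 34 of 100 genes changed 2-fold and 75 of 100 changed 4-fold were called for KO against WT among 15364 genes, and 41 and 79 for IBR against CTL. Each simulation also gave 12 false calls. Its changed genes were drawn at random from all tested genes, and no library was made to stand apart as KO337 did. These rates therefore need not hold for the members.

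All members were accounted for by role. Those described library by library were taken from the 3 of smallest p in their role for KO against WT, from those that overlapped there, and from those that had the smallest p of their role, lay without overlap or were positive in the drug comparison. From the other pathway lists, called genes or else those among the 2 of smallest p were named, and Dgat2 and Plin2 were added after their values were seen. One gene that this rule named is not reported here. The members and lists were chosen with earlier results of these data known.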

Additional observations from a re-analysis of the deposited data

How the results depend on the processing

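For KO against WT, the number of members called lower was 16 with no filter on low counts (2.77% of all tested genes) and 22 by DESeq2 (6.22%), and 0 to 29 when 1 library was left out (29 without KO26, with 13% of all tested genes). Percentages in brackets are those of all tested genes under the same setting and rule. The number lower at an unadjusted p under 0.05 was 19 with gene count totals (5.99%) and 7 in the genotype libraries alone (5.03%), and 13 (without WT35, 7.71%) to 32 (without KO26, 19.3%) when 1 library was left out. Leaving out 1 library moved the members' median from -1.42 to -0.44. Lpl and Cpt1a turned to 0.056 and 0.20 with gene count totals. With 1 library left out, Lpl ran from -0.68 to 0.20, Acot2 from -1.27 to 0.15 and Cpt1a from -0.27 to 0.17. Where a group was left with 1 library, it was assumed to vary like the others. For IBR against CTL, 0 members were called under every alternative. The number lower at an unadjusted p under 0.05 was 0 to 2 when 1 library was left out (2 without KO26, 4.29%). The number lower without overlap was 2 with gene count totals (5.1%) and 4 (without KO337, 6.64%, or WT35, 6.72%) to 16 (without CTL3, 19.9%) by leaving out 1 library. The median was -0.038 with gene count totals, -0.082 with no filter, and -0.18 to -0.10 when 1 library was left out. Single genes that turned sign on leaving out 1 library ran from -0.11 to 0.15 (Lpl), -0.030 to 0.52 (Cpt1a), -0.29 to 0.039 (Ppara), -1.12 to 0.20 (Ppargc1a), -0.66 to 0.44 (Pdk4) and -0.16 to 0.53 (Ucp3). With the replicate block 0 members were called and the median was -0.12. Same-numbered CTL and IBR libraries deviated together with r of 0.016, 0.162 and 0.032 across genes, so the numbers were not taken to pair them. For the difference of effects, 0 to 24 members were called lower when 1 library was left out (24 without KO26, 5.82%), and the number lower at an unadjusted p under 0.05 was 4 with gene count totals (3.03%), 23 with no filter (4.82%), 16 by DESeq2 (5.77%) and 2 (without IBR2, 3.62%, or WT35, 3.84%) to 31 (without KO26, 13.6%) when 1 library was left out, with medians of -1.25 to -0.36. The cause of these shifts was not tested.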

Other observations

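The 2 control groups belong to different experiments and were not tested against each other, and their members' levels differed in an uneven way. The mean CPM in CTL over that in WT had a median of 1.30 over the 35 members and ran from 0.41 for Cpt1b to 3.12 for Fabp3. The CPM ratio of Hadha to Hadhb, whose products form 1 enzyme complex, was 0.929 to 1.13 in the 6 drug libraries and 1.99 to 2.10 in the 4 genotype libraries. In RefSeq (GRCm38.p6) both genes start head to head on chromosome 5, with start sites 273 bases apart. The ratio of Etfa to Etfb, also subunits of 1 protein, was 1.15 to 1.30 in the drug libraries and 1.60 to 1.75 in the genotype libraries. In GENCODE vM21, 53.0% of the exon bases of Etfb are shared with the same-strand gene Gm45233, which has no row in the count files. Any effect of that on the counts was not tested. Hadha over Hadhb overlapped between the groups of each experiment, with 1.99 and 2.05 in WT and 1.99 and 2.10 in KO26 and KO337. Etfa over Etfb overlapped between CTL and IBR but was 1.75 and 1.70 in WT and 1.60 and 1.69 in KO26 and KO337, so that WT338 and KO337 nearly met.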
